A study of Homo sapiens with 6 samples.

Results

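MBNL, CELF, RBFOX, QKI and PTBP proteins bind pre-mRNA and decide which cassette exons of other genes are kept, and their own transcripts carry cassette exons too. The exons described here are the skipped-exon events whose middle exon lies on the same strand within MBNL1, MBNL2, MBNL3, CELF1, CELF2, RBFOX2, QKI, PTBP1, PTBP2 or PTBP3 in the GENCODE 29 annotation. They number 65 of the 47986 events measured, and 51 of 40658 once events with the same middle exon are reduced to the event with the most informative reads. The genes hold 10 exons in MBNL1, 3 in MBNL2, 3 in MBNL3, 7 in CELF1, 8 in CELF2, 7 in RBFOX2, 3 in QKI, 4 in PTBP1, 3 in PTBP2 and 3 in PTBP3.

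The RNA came from MDA-LM2 cells, a human breast cancer line selected from MDA-MB-231 for its spread to the lung, harvested 48 h after siRNA transfection. The siSNRPA1 group (3 libraries) was depleted of SNRPA1, known as U2 A′, which sits in the U2 snRNP, the small nuclear ribonucleoprotein that pairs with the branch point. The siSNRPB group (1 library) was depleted of SNRPB, part of the protein ring around several spliceosomal snRNAs. The siCtrl group (2 libraries) received control siRNA. All groups are of the same line, and which siRNA went into which library is not stated. Each group is represented by 1 deposited set of inclusion levels, a pool with no replicate, so no standard deviation can be given, and a test compares the reads of 2 pools and not 2 conditions.

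MBNL, the muscleblind-like zinc finger proteins, and CELF proteins act against each other on many developmental exons, and loss of free MBNL to expanded repeat RNA underlies myotonic dystrophy. RBFOX proteins bind GCATG and often favour an exon when bound downstream of it. QKI belongs to the STAR family of KH-domain proteins and is known for roles in myelination and in epithelial to mesenchymal transition. PTBP proteins bind pyrimidine-rich RNA and mostly repress exons, with PTBP1 widespread and PTBP2 prominent in neurons. Several of these genes control the splicing of their own or each other's exons, and skipping of some of those exons puts the transcript out of frame.

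Some of the exons are shared between paralogues. The 36-nt coding exon of the MBNL genes, known in MBNL1 for promoting contact between MBNL molecules, is shown because it responded in MBNL1; capitals mark the 26 bases that are the same in all 3 genes.
MBNL1 36-nt exon: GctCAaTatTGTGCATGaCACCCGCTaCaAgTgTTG
MBNL2 36-nt exon: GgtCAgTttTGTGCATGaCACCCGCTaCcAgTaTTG
MBNL3 36-nt exon: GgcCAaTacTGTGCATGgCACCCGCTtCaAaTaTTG

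These sequences were 86.1% identical between MBNL1 and MBNL2, 80.6% between MBNL1 and MBNL3 and 77.8% between MBNL2 and MBNL3. Each holds 1 GCATG, searched on the transcript strand, and 5 of 161 skipped exons of 36 nt hold it (3.11%), these 3 among them. Such a match is a description of the letters only. The 34-nt exons of PTBP1 and PTBP2 are shown because their skipping is the known route by which PTBP1 limits both genes; capitals mark the 25 bases they share, an identity of 73.5%.
PTBP1 34-nt exon: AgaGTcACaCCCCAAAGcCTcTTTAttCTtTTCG
PTBP2 34-nt exon: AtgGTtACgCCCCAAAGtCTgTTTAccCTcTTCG

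The next exons carry the falls in inclusion seen in both knockdown pools (CELF2 and RBFOX2), and the PTBP1 exon that has a longer and a shorter form, whose capitals mark the 21 bases absent from the 57-nt form. All sequences are from the GENCODE 29 transcripts on hg38 and run 5′ to 3′.
CELF2 83-nt exon: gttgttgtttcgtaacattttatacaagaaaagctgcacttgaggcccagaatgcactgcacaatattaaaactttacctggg
RBFOX2 40-nt exon: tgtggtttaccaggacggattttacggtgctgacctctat
PTBP1 78-nt exon: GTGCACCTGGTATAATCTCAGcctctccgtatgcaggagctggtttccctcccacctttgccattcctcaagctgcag

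The 51 exons were 31 to 963 nt long with a median of 80 nt, against 115 nt over all exons. Of them 35 lay within coding sequence, 6 were partly coding and 10 were not coding, and 47 matched an annotated exon. The length of 23 was a multiple of 3, and 19 coding exons had a length that was not. Reads were counted as informative when they fit inclusion alone or exclusion alone, and 28 exons had at least 20 such reads in all 3 pools. The median exon of these genes had 97 informative reads in siSNRPA1, 46.5 in siSNRPB and 57 in siCtrl. Of the 28, the inclusion level was at least 0.9 for 13 in siSNRPA1, 14 in siSNRPB and 15 in siCtrl, and at most 0.1 for 4 in siSNRPA1, 3 in siSNRPB and 3 in siCtrl. The inclusion level is the authors' posterior mean on a scale from 0 to 1, given here with the bounds of the authors' interval, whose width is not stated.

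Over all events the pools held 7831446 informative reads in siSNRPA1, 3396043 in siSNRPB and 5707839 in siCtrl. Counted as reads that fit an isoform of a skipped-exon event, per 1000000 such reads of the pool (RPM below), SNRPA1 had 21.9 RPM in siSNRPA1, 272 in siSNRPB and 118 in siCtrl, and SNRPB had 337 in siSNRPA1, 30.6 in siSNRPB and 247 in siCtrl, so each target was lowest in its own knockdown. As for the cell type, 4 of 5 mesenchymal markers had reads, with a sum of 4230 RPM in siSNRPA1, 4500 in siSNRPB and 4030 in siCtrl (VIM had none in these events). Most of that sum came from CD44, at 3430 in siSNRPA1, 3540 in siSNRPB and 3270 in siCtrl. SPARC had only 3.62 RPM in siSNRPA1, 2.27 in siSNRPB and 3.07 in siCtrl. Of 6 epithelial markers 5 had reads, summing to 817 RPM in siSNRPA1, 882 in siSNRPB and 816 in siCtrl, nearly all from KRT8 at 804 in siSNRPA1, 870 in siSNRPB and 800 in siCtrl. EPCAM had 0 reads, and CDH1 had 0.657 RPM in siSNRPA1, 0 in siSNRPB and 1.08 in siCtrl. ESRP2 was higher than these, at 10.8 RPM in siSNRPA1, 10.9 in siSNRPB and 13.5 in siCtrl. The 4 leukocyte markers summed to 256 RPM in siSNRPA1, 248 in siSNRPB and 295 in siCtrl, of which CD74 made up 245 in siSNRPA1, 238 in siSNRPB and 282 in siCtrl.

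Testing required 20 or more informative reads per pool and, summed over the 2 pools, 5 or more reads for inclusion and 5 or more for exclusion. It passed when a two-sided Fisher's exact test of these reads, Benjamini-Hochberg adjusted over all tested exons of the whole table, gave an adjusted p under 0.05 and the inclusion level differed by at least 0.1 the same way; "fell" and "rose" refer to this rule. In siSNRPA1 against siCtrl, 3 of 15 tested exons of these genes fell (20%) and 0 rose, beside a background of 12.8% falling, 4.18% rising and 17.0% passing either way among 6459 exons. In siSNRPB against siCtrl, 3 of 13 fell (23.1%) and 0 rose, beside 16.7% falling, 4.62% rising and 21.3% passing among 4244 exons. The share that passed was thus near that of all exons and is no property of these genes. The 2 comparisons share the siCtrl pool.

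CELF2 and RBFOX2 each had an exon that fell in both knockdowns, MBNL1 had an exon that fell in siSNRPA1, and CELF1 had an exon that fell in siSNRPB. The median level difference of the tested exons was -0.03 in siSNRPA1, against -0.02 over all exons, and -0.06 in siSNRPB, against -0.01 over all exons. The level was lower than in siCtrl for 12 of 15 exons in siSNRPA1 and 11 of 13 in siSNRPB, where 58.8% and 58.2% of all tested exons were lower. The counts hold both the 78-nt and the 57-nt form of 1 PTBP1 exon. They leave out exons without exclusion reads, of which RBFOX2 54-nt, CELF1 80-nt and CELF2 80-nt were higher in both knockdowns. Of the exons left out, PTBP3 170-nt and 85-nt were lower in both. Between the knockdowns 1 of 18 tested exons passed, with a higher level in siSNRPA1 than in siSNRPB, and 0 passed with a lower level (5.56%), beside 8.28% passing higher, 6.38% passing lower and 14.7% passing either way among 5082 exons. Without regard to the test, the level was higher in siSNRPA1 for 13 of the 18 and lower for 5.

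**Figure D1:**
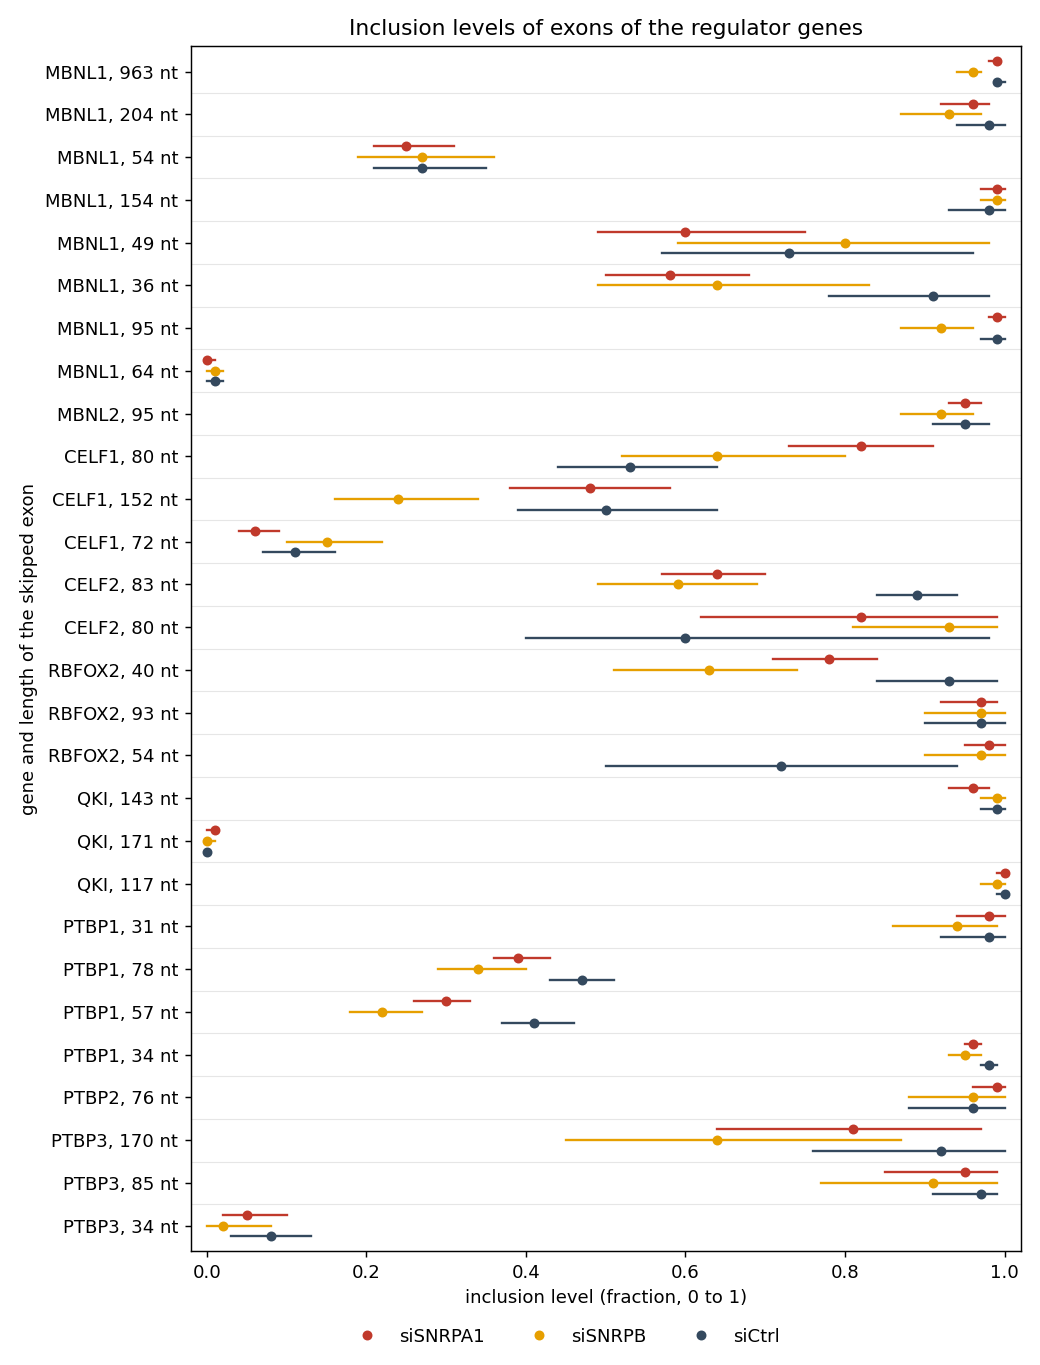
Inclusion level (0 to 1) of each exon of the 10 genes with at least 20 informative reads in all 3 pools, with 1 point per pool (siSNRPA1, siSNRPB, siCtrl) and bars for the authors' interval. The points of many exons lie together near 0 or 1, while those of the CELF2 83-nt, RBFOX2 40-nt and MBNL1 36-nt exons lie lower in both knockdown pools than in siCtrl.

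**Figure D2:**
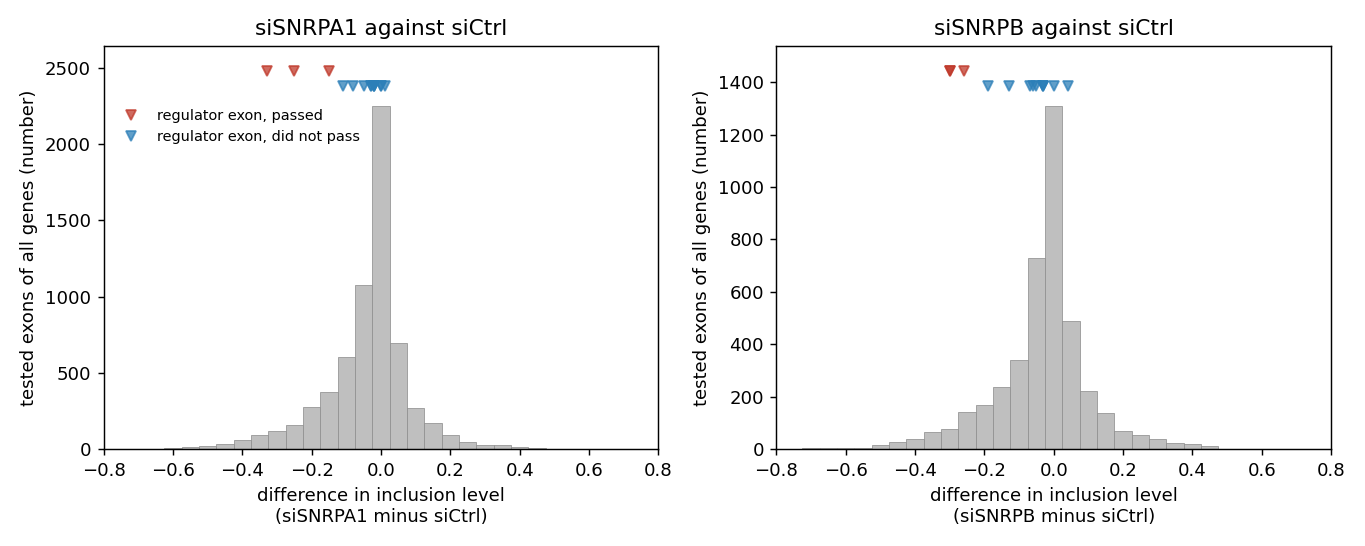
Level differences (siSNRPA1 minus siCtrl, left, and siSNRPB minus siCtrl, right) of the tested exons of the 10 genes, as triangles above the histogram of all tested exons. The triangles lie within the range of all exons, mostly at or below 0, and in siSNRPB the CELF2 83-nt and RBFOX2 40-nt exons coincide at -0.30.

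CELF2 encodes a three-RRM RNA-binding protein. Its 83-nt coding exon (hg38 chr10:11217425-11217507, plus strand; sequence above) had a level of 0.64 (0.57 to 0.70) in siSNRPA1, 0.59 (0.49 to 0.69) in siSNRPB and 0.89 (0.84 to 0.94) in siCtrl. Behind these stood 229 inclusion and 46 exclusion reads in siSNRPA1, 93 and 22 in siSNRPB, and 282 and 12 in siCtrl. Both knockdown pools were thus lower, and neither interval overlapped that of siCtrl. The share of inclusion reads was 83.3% (78.4 to 87.2) in siSNRPA1, 80.9% (72.7 to 87.0) in siSNRPB and 95.9% (93.0 to 97.6) in siCtrl, with 95% Wilson intervals that cover counting error only. The exon fell in both knockdowns, with a level difference of -0.25 in siSNRPA1 and -0.30 in siSNRPB. Its share of inclusion reads was lower by 12.6 percentage points in siSNRPA1 (adjusted p 1.44e-05, Fisher's exact test) and by 15.0 points in siSNRPB (adjusted p 4.76e-05). Between the knockdowns the share differed by 2.4 points (-5.43 to 11.4, adjusted p 0.703 by Fisher's exact test). All 15 annotated transcripts that hold the exon are protein coding, and both transcripts that skip it are annotated for nonsense-mediated decay. Among the alternatives tried, this exon alone passed in both comparisons with siCtrl when all read counts were divided by 2. The authors' deposited table gives Bayes factors of 3412338815.13 for siSNRPA1 and 6168416553.10 for siSNRPB.

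RBFOX2 is the RBFOX protein of most non-neural tissues. Its 40-nt coding exon (chr22:35756105-35756144, minus strand; sequence above), towards the carboxyl end of the protein, had a level of 0.78 (0.71 to 0.84) in siSNRPA1, 0.63 (0.51 to 0.74) in siSNRPB and 0.93 (0.84 to 0.99) in siCtrl. The reads were 157 inclusion and 30 exclusion in siSNRPA1, 53 and 19 in siSNRPB, and 55 and 2 in siCtrl. The lowest level was in siSNRPB. The share of inclusion reads was 84.0% (78 to 88.5) in siSNRPA1, 73.6% (62.4 to 82.4) in siSNRPB and 96.5% (88.1 to 99.0) in siCtrl. It fell by 12.5 points in siSNRPA1 (adjusted p 0.0423, Fisher's exact test) and fell by 22.9 points in siSNRPB (adjusted p 0.00285, Fisher's exact test). The siSNRPA1 call rests on few exclusion reads in siCtrl and was lost at a level difference of 0.2, with the Bayes factor (3.34 in the authors' deposited table), and in 2 test settings, where its adjusted p from Fisher's exact test ranged from 0.0398 to 0.314 over the 7 alternatives with a p. The siSNRPB call was lost only with read counts divided by 2 (0.0763, range 0.00253 to 0.0763).

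The neighbouring 43-nt exon of RBFOX2, which shares those exclusion reads, was skipped in all pools at levels of 0.08 in siSNRPA1, 0.03 in siSNRPB and 0.07 in siCtrl. The 93-nt exon, which encodes part of the RRM, stayed at 0.97 in each pool, and the 32-nt exon had 0 inclusion reads in all 3. Inclusion of a 54-nt coding exon (chr22:35778025-35778078) was estimated at 0.98 in siSNRPA1, 0.97 in siSNRPB and 0.72 in siCtrl, yet with 0 exclusion reads in every pool. Its inclusion reads numbered 222 in siSNRPA1, 100 in siSNRPB and 40 in siCtrl. A 51-nt form of it had levels of 0.92 (0.82 to 1.00) in siSNRPA1, 0.81 (0.60 to 0.99) in siSNRPB and 0.32 (0.19 to 0.50) in siCtrl, again with 0 exclusion reads. The authors' deposited table gives that form a Bayes factor of 1000000000000.00 for siSNRPA1 and 149.63 for siSNRPB. These levels rest on the reads of the flanking exons, which fit both isoforms, so the read test could not be run. For each such read of the 54-nt event there were 0.603 inclusion reads in siSNRPA1, 0.474 in siSNRPB and 0.212 in siCtrl.

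A level below 1 with no exclusion read was common. Among exons with at least 20 informative reads and 0 exclusion reads, 21.3% of 9559 in siSNRPA1, 17.4% of 8134 in siSNRPB and 18.1% of 10625 in siCtrl had a level under 0.7. Of the 28 exons above, 10 had 0 exclusion reads in all pools. The 80-nt coding exon of CELF1 was among them, with levels of 0.82 (0.73 to 0.91) in siSNRPA1, 0.64 (0.52 to 0.80) in siSNRPB and 0.53 (0.44 to 0.64) in siCtrl and with inclusion reads of 308 in siSNRPA1, 93 in siSNRPB and 135 in siCtrl. Its Bayes factor in the authors' deposited table was 10343.29 for siSNRPA1 and 0.42 for siSNRPB. The 80-nt exon of CELF2, 78.8% identical in sequence, had levels of 0.82 in siSNRPA1, 0.93 in siSNRPB and 0.60 in siCtrl and inclusion reads of 51 in siSNRPA1, 30 in siSNRPB and 39 in siCtrl.

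CELF1 encodes the widely expressed CELF protein. Its partly coding 152-nt exon (chr11:47499453-47499604, minus strand) had a level of 0.48 (0.38 to 0.58) in siSNRPA1, 0.24 (0.16 to 0.34) in siSNRPB and 0.50 (0.39 to 0.64) in siCtrl. The reads were 103 inclusion and 3 exclusion in siSNRPA1, 38 and 9 in siSNRPB, and 80 and 4 in siCtrl, so siSNRPB stood apart from the other pools. In siSNRPB the share of inclusion reads fell by 14.4 points against siCtrl (-28.1 to -3.29, adjusted p 0.0378 by Fisher's exact test), whereas in siSNRPA1 it differed by 1.93 points (-3.99 to 9.03, adjusted p 0.823). The level was 0.24 higher in siSNRPA1 than in siSNRPB (adjusted p 0.00839, Fisher's exact test), the only passing difference between the knockdowns among these genes. With read counts divided by 2 both calls were lost, at adjusted p values of 0.236 and 0.146, and over the alternatives with a p they ranged from 0.0374 to 0.236 and from 0.00839 to 0.146. The call against siCtrl was also lost without the filter on inclusion and exclusion reads (0.121), and with 47 informative reads in siSNRPB neither could be tested at a minimum of 50. The 72-nt non-coding exon of CELF1 had levels of 0.06 in siSNRPA1, 0.15 in siSNRPB and 0.11 in siCtrl, from 17 inclusion and 148 exclusion reads in siSNRPA1, 23 and 64 in siSNRPB, and 20 and 88 in siCtrl. Its inclusion reads were less frequent in siSNRPA1 than in siSNRPB (adjusted p 0.0102, Fisher's exact test), but the level difference of -0.09 did not reach 0.1.

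**Figure D3:**
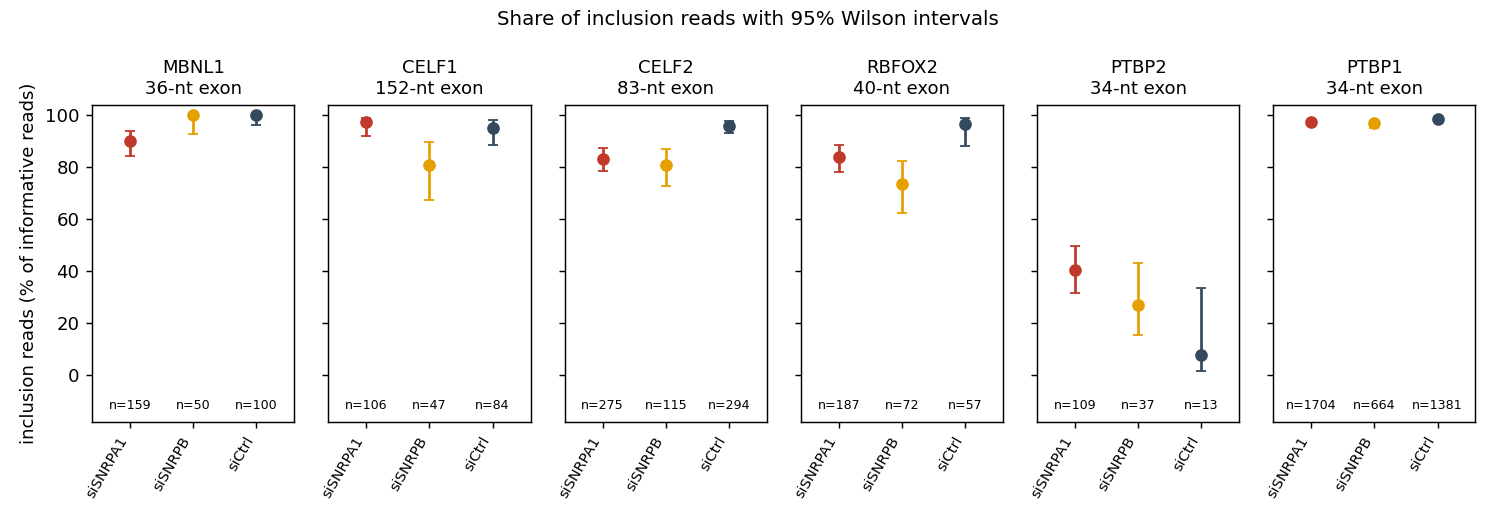
Share of inclusion reads (percent of informative reads) in the siSNRPA1, siSNRPB and siCtrl pools for the 4 exons that passed in at least 1 comparison and for the 34-nt exons of PTBP2 and PTBP1, with 95% Wilson intervals and the number of informative reads. The CELF2 83-nt and RBFOX2 40-nt exons are lower in both knockdown pools than in siCtrl, and the CELF1 152-nt exon is lowest in siSNRPB.

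MBNL1 encodes the main MBNL protein of most tissues. Its 36-nt exon (chr3:152455542-152455577, plus strand; sequence above) had a level of 0.58 (0.50 to 0.68) in siSNRPA1, 0.64 (0.49 to 0.83) in siSNRPB and 0.91 (0.78 to 0.98) in siCtrl. The reads were 143 inclusion and 16 exclusion in siSNRPA1, 50 and 0 in siSNRPB, and 100 and 0 in siCtrl, so exclusion reads were seen only in siSNRPA1. The share of inclusion reads was 89.9% (84.3 to 93.7) in siSNRPA1, and its fall of 10.1 points against siCtrl passed (adjusted p 0.00274, Fisher's exact test); with read counts divided by 2 it did not (adjusted p 0.122, range over the alternatives 0.00241 to 0.122). In siSNRPB, with 0 exclusion reads in both pools, no test could be run. In the authors' deposited table the Bayes factor was 13956.95 for siSNRPA1 and 8.01 for siSNRPB. Against other flanking exons the level was not the same: with the exon after the 95-nt exon as flank it was 0.86 in siSNRPA1, 0.84 in siSNRPB and 0.93 in siCtrl, with exclusion reads of 1 in siSNRPA1, 0 in siSNRPB and 0 in siCtrl. With another upstream flank it was 0.19 in siSNRPA1, 0.13 in siSNRPB and 0.30 in siCtrl, with 0 exclusion reads in each.

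No other MBNL1 exon passed in any comparison at the minimum of 20 reads. At a minimum of 10 the 120-nt exon, which shares its exclusion reads with the 963-nt exon, also passed in siSNRPB against siCtrl (adjusted p 0.000547, Fisher's exact test). Its levels were 0.07 in siSNRPA1, 0.03 in siSNRPB and 0.15 in siCtrl, from 7 inclusion and 9 exclusion reads in siSNRPA1, 0 and 23 in siSNRPB, and 7 and 4 in siCtrl. The 54-nt exon, known for its part in nuclear localisation, had levels of 0.25 in siSNRPA1, 0.27 in siSNRPB and 0.27 in siCtrl, with adjusted p values from Fisher's exact test of 0.52 for siSNRPA1 and 0.751 for siSNRPB. The 204-nt exon had levels of 0.96 in siSNRPA1, 0.93 in siSNRPB and 0.98 in siCtrl. The 95-nt exon was at 0.99 in siSNRPA1, 0.92 in siSNRPB and 0.99 in siCtrl, and its siSNRPB difference of -0.07 did not reach 0.1 (adjusted p 0.0081, Fisher's exact test). Likewise the 963-nt exon, at 0.99 in siSNRPA1, 0.96 in siSNRPB and 0.99 in siCtrl, differed by -0.03 in siSNRPB at an adjusted p of 7.47e-06 by Fisher's exact test, on 23 exclusion reads against 4 in siCtrl. The 64-nt exon, which overlaps a gene on the other strand, was at most 0.01 in all pools, the 154-nt exon was at least 0.98 with the 36-nt exon as downstream flank, and its 49-nt form was at 0.60 in siSNRPA1, 0.80 in siSNRPB and 0.73 in siCtrl with 0 exclusion reads. These levels too depended on the flank. With the 95-nt exon downstream, the 154-nt exon was at 0.94 in siSNRPA1, 0.97 in siSNRPB and 0.84 in siCtrl, and the 49-nt form at 0.08 in siSNRPA1, 0.07 in siSNRPB and 0.01 in siCtrl, again with 0 exclusion reads.

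MBNL2, the paralogue prominent in brain, kept its 95-nt exon at 0.95 in siSNRPA1, 0.92 in siSNRPB and 0.95 in siCtrl, and its 54-nt exon, 83.3% identical to that of MBNL1, was mostly skipped, at 0.05 in siSNRPA1, 0.03 in siSNRPB and 0.06 in siCtrl. The 36-nt exon of MBNL2 had 0 inclusion reads in all pools, beside 36 exclusion reads in siSNRPA1, 10 in siSNRPB and 8 in siCtrl. The pair of exons that MBNL1 included in part was thus rarely read in MBNL2. The 36-nt exon of MBNL3 had only 10 inclusion reads in siSNRPA1, 1 in siSNRPB and 0 in siCtrl, and a gene on the other strand overlaps it.

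PTBP1 kept its 34-nt exon (chr19:807869-807902, plus strand) at 0.96 in siSNRPA1, 0.95 in siSNRPB and 0.98 in siCtrl. The reads were 1659 inclusion and 45 exclusion in siSNRPA1, 643 and 21 in siSNRPB, and 1362 and 19 in siCtrl. The share of inclusion reads was lower by 1.27 points in siSNRPA1 (adjusted p 0.0489, Fisher's exact test) and by 1.79 points in siSNRPB (adjusted p 0.0294), small differences that did not reach 0.1 in level. Both annotated transcripts that skip this exon are marked for nonsense-mediated decay. The 78-nt exon in the linker between RNA-binding domains had levels of 0.39 (0.36 to 0.43) in siSNRPA1, 0.34 (0.29 to 0.40) in siSNRPB and 0.47 (0.43 to 0.51) in siCtrl, and its 57-nt form had 0.30 in siSNRPA1, 0.22 in siSNRPB and 0.41 in siCtrl. Yet the inclusion read shares of the 78-nt form lay close together, at 95.9% in siSNRPA1, 95.2% in siSNRPB and 96.1% in siCtrl. Those of the 57-nt form were 92.8% in siSNRPA1, 90.5% in siSNRPB and 94.2% in siCtrl. No test passed, with adjusted p from Fisher's exact test in siSNRPA1 and siSNRPB of 0.96 and 0.668 (78-nt) and 0.678 and 0.289 (57-nt). Both forms share the same exclusion reads, 24 in siSNRPA1, 10 in siSNRPB and 21 in siCtrl. For each read that fits both isoforms, inclusion reads of the 57-nt form numbered 0.0645 in siSNRPA1, 0.0476 in siSNRPB and 0.0907 in siCtrl. Those of the 78-nt form numbered 0.116 in siSNRPA1, 0.0997 in siSNRPB and 0.14 in siCtrl. The authors' deposited table gives the 57-nt form Bayes factors of 924.72 for siSNRPA1 and 1000000000000.00 for siSNRPB, and the 78-nt form 2.67 and 79.11. The 31-nt exon was at 0.98 in siSNRPA1, 0.94 in siSNRPB and 0.98 in siCtrl.

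PTBP2 carries the related 34-nt exon (chr1:96806419-96806452, plus strand), with levels of 0.35 (0.26 to 0.43) in siSNRPA1, 0.23 (0.12 to 0.34) in siSNRPB and 0.10 (0.02 to 0.24) in siCtrl. It had 44 inclusion and 65 exclusion reads in siSNRPA1, 10 and 27 in siSNRPB, and 1 and 12 in siCtrl. With 13 reads the siCtrl pool was too shallow for the test; at a minimum of 10 reads the adjusted p from Fisher's exact test was 0.0813 for siSNRPA1 and 0.366 for siSNRPB, and neither passed. The share of inclusion reads was 32.7 points higher in siSNRPA1 than in siCtrl (5.61 to 44, 95% Newcombe interval) and 19.3 points higher in siSNRPB (-8.8 to 36.5), and the authors' deposited table gives Bayes factors of 12.84 for siSNRPA1 and 0.64 for siSNRPB. The 76-nt exon of PTBP2 was at 0.99 in siSNRPA1, 0.96 in siSNRPB and 0.96 in siCtrl. PTBP3, a paralogue known from blood cells, has a 34-nt exon unlike that of PTBP1 and PTBP2 in sequence and in flanking exon lengths. PTBP3 skipped this exon at 0.05 in siSNRPA1, 0.02 in siSNRPB and 0.08 in siCtrl, on informative reads that were nearly all for exclusion. Its other exons had 0 exclusion reads in each pool, with levels of 0.81 in siSNRPA1, 0.64 in siSNRPB and 0.92 in siCtrl for the 170-nt exon and 0.95 in siSNRPA1, 0.91 in siSNRPB and 0.97 in siCtrl for the 85-nt exon.

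None of the 3 QKI exons passed in any comparison. The 117-nt exon had 1473 inclusion reads in siSNRPA1, 388 in siSNRPB and 1003 in siCtrl with 0 exclusion reads, and the 143-nt exon was at 0.96 in siSNRPA1, 0.99 in siSNRPB and 0.99 in siCtrl. The 171-nt exon was at most 0.01 in all pools, although all 6 of its inclusion reads were in siSNRPA1, beside 48 exclusion reads there, 24 in siSNRPB and 42 in siCtrl (adjusted p 0.0855 for siSNRPA1, Fisher's exact test).

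The number of reads over the genes changed as well. MBNL2, RBFOX2 and PTBP2 had more reads in both knockdown pools. MBNL2 had 162 RPM in siSNRPA1, 160 in siSNRPB and 76.6 in siCtrl, ratios of 2.12 (1.99 to 2.25) and 2.08 (1.94 to 2.23) with exact 95% intervals for counting error. RBFOX2 had 116 RPM in siSNRPA1, 137 in siSNRPB and 67 in siCtrl, ratios of 1.73 (1.62 to 1.85) and 2.04 (1.89 to 2.2). PTBP2, the least covered, had 17.3 RPM in siSNRPA1, 16.7 in siSNRPB and 7.65 in siCtrl, ratios of 2.26 (1.87 to 2.75) and 2.19 (1.75 to 2.74). These 3 of 10 genes reached a ratio of 1.5 in both pools, as did 1.88% of 7784 genes with at least 200 reads in a pool (3.88% in siSNRPA1 and 6.89% in siSNRPB). In siSNRPA1 99.6% of those genes had a lower ratio than MBNL2, 98.6% than RBFOX2 and 99.7% than PTBP2. PTBP2 reached 200 reads only in siSNRPA1, a pool where it is high (474 reads, beside 192 in siSNRPB and 142 in siCtrl). Its rank therefore gives no support beyond its ratio. The ratio was above 1 for 3 of 3 exons of MBNL2, 7 of 7 of RBFOX2 and 2 of 2 of PTBP2 in each knockdown. These exons make up the sum of the gene, and some of them share reads. The tally therefore describes that sum and gives no further support.

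The remaining genes had ratios from 0.709 for PTBP3 to 1.07 for MBNL1 in siSNRPA1 and from 0.674 for QKI to 1.22 for CELF1 in siSNRPB. QKI had 256 RPM in siSNRPA1, 174 in siSNRPB and 259 in siCtrl, with siSNRPB apart from the other pools, while PTBP3 had 24.9 RPM in siSNRPA1, 35.9 in siSNRPB and 35.1 in siCtrl. PTBP1 had 551 RPM in siSNRPA1, 536 in siSNRPB and 648 in siCtrl. Such ratios were not rare among the 7784 genes. In siSNRPB 19.8% of them had a lower ratio than QKI and 35.2% than PTBP1. In siSNRPA1 10.7% had a lower ratio than PTBP3 and 26.7% than PTBP1. No replicate stands behind these ratios, and fewer cells with a transcript cannot be told apart from less of it per cell. A read in a flanking exon can count in several events. The intervals take such repeated reads as separate and are then too narrow even for counting error.

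**Figure D4:**
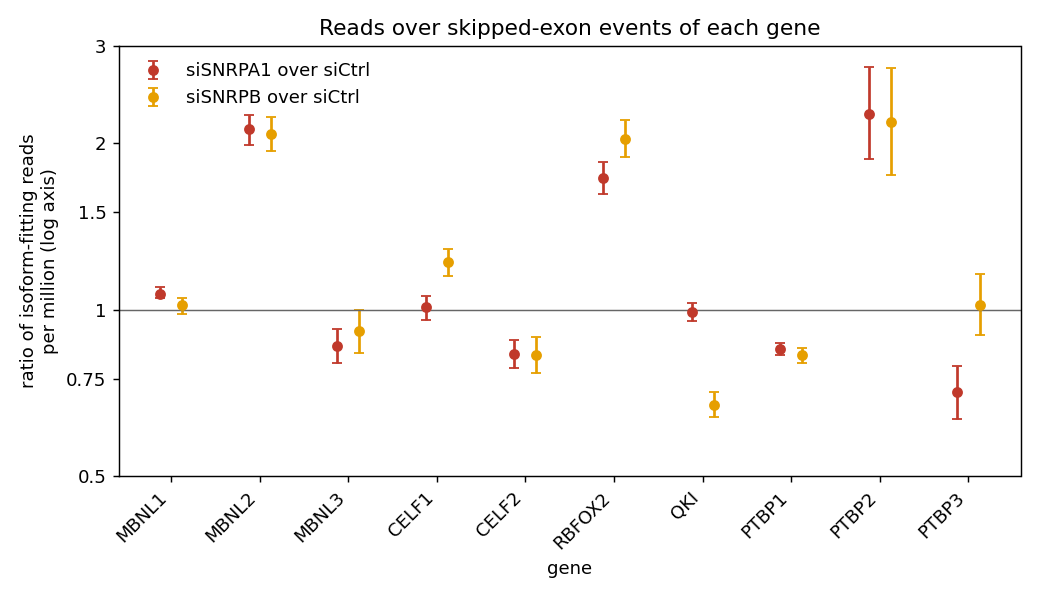
Ratio of a gene's RPM in siSNRPA1 and in siSNRPB over that in siCtrl (log axis, line at 1) for the 10 genes, with exact 95% intervals for counting error. The intervals are too narrow where a read counts in several events. MBNL2, RBFOX2 and PTBP2 lie at 1.73 or more in both knockdown pools, while QKI lies at 0.991 in siSNRPA1 and 0.674 in siSNRPB.

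Among 36 other splicing regulators, 10 had a tested exon in siSNRPA1 against siCtrl, where 2 of 21 exons fell and 2 rose (19%, beside 17.0% of all exons), and 9 in siSNRPB, where 1 of 17 fell and 1 rose (11.8%, beside 21.3% of all exons). MATR3, a nuclear matrix protein that works with PTBP1, had a 42-nt exon at 0.78 in siSNRPA1, 0.84 in siSNRPB and 0.98 in siCtrl, which fell in both (adjusted p 1.82e-15 and 5.09e-08, Fisher's exact test). The 55-nt exon of RBM38 was at 0.56 in siSNRPA1, 0.86 in siSNRPB and 0.85 in siCtrl, and it fell in siSNRPA1 (adjusted p 4.48e-07, Fisher's exact test) and was lower there than in siSNRPB (adjusted p 8.82e-09). RBM5 had a 70-nt non-coding exon at 0.18 in siSNRPA1, 0.03 in siSNRPB and 0.02 in siCtrl, which rose in siSNRPA1 (adjusted p 4.84e-06, Fisher's exact test). RBM10 had a 231-nt exon at 0.53 in siSNRPA1, 0.66 in siSNRPB and 0.48 in siCtrl, which rose in siSNRPB (adjusted p 2.84e-05, Fisher's exact test).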

How the data were processed

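RNA was sequenced from 6 libraries made with a stranded total RNA kit, per the labels' protocols; the submitters' processing notes name STAR 2.7 and hg38 with no role. The files are in the format of MISO, a program that estimates exon inclusion; the sources used here give neither its version, nor the strand setting, nor how libraries were combined. Per the file headers, the authors deposited for each group the inclusion level, a fraction, with interval bounds, and reads per compatibility class. Per the file headers, 2 comparison tables hold a difference in level, a score, and a Bayes factor, a ratio of evidence. The deposited differences were checked to equal those of the summaries within 0.006 in 44653 of 44653 and 38112 of 38112 events. Unused columns of per-sample values numbered 0.

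Exons were placed with GENCODE 29, which matched 95.7% of events exactly. An opposite-strand gene overlaps 4 of the exons, whose reads cannot be told apart from its own. No molecular identifiers are described, so a read need not be its own molecule, and intervals (95%, Wilson for shares, Newcombe for their differences, exact for RPM) and p-values cover counting error at most. The test was tested on simulated data, in which the level was set to the read share and libraries did not vary. That simulation therefore says nothing about spread between libraries or about levels that differ from read shares. Every exon of the 10 genes that passed or had at least 20 informative reads in each pool was described, with others given where they bear on these, and up to 3 passing exons per list and comparison. The exon of 1 listed gene is not reported here. The genes, lists and tests were chosen with earlier results of these data known. Python 3.11.15, scipy 1.17.1, numpy 2.4.6 and pandas 2.3.3 were used.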

Additional observations from a re-analysis of the deposited data

Results flagged for a closer look

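The 152-nt exon of CELF1 differed directly between the knockdowns, with a level 0.24 higher in siSNRPA1 (0.48) than in siSNRPB (0.24) and an adjusted p of 0.00839 by Fisher's exact test. The siSNRPB value rests on 38 inclusion and 9 exclusion reads, and no replicate stands behind it.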

How the results depend on the processing

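Calls over all exons were fewer with deeper or stricter settings, and a higher read minimum or divided counts also left fewer exons to test. For siSNRPA1 against siCtrl, siSNRPB against siCtrl and siSNRPA1 against siSNRPB in turn, 1097 of 6459, 903 of 4244 and 745 of 5082 tested exons passed. With at least 50 informative reads 711 of 4433, 539 of 2714 and 419 of 3279 passed. At a level difference of 0.2, with as many exons tested as at first, 554, 512 and 420 passed. With read counts divided by 2 the numbers were 276 of 4009, 290 of 2497 and 193 of 3020. For the exons of the 10 genes, dividing read counts by 2 left 1 of 12, 1 of 11 and 0 of 13 tested exons passing in these comparisons. A Bayes factor of at least 10 gave 5 of 13 in siSNRPB against siCtrl, beside 752 of 4244 over all exons. The added calls were the 78-nt and 57-nt forms of the same PTBP1 exon, which share their exclusion reads. Between the knockdowns 0 of 13 passed with at least 50 reads, beside 419 of 3279 over all exons. With the read share as level 2 of 18 passed, beside 902 of 5082 over all exons. Of 343 single-exon results under alternatives, 328 did not reverse and kept their side of the threshold, 9 no longer passed and 5 newly passed. Most of the 328 passed neither as reported nor under the alternative. A reported difference of 0 always counted as not reversed. Exons tested only at a minimum of 10 reads were included, and settings in which an exon was not tested were left out. The CELF1 152-nt exon reversed in siSNRPA1, at 0.02 with the read share in place of the level and -0.02 as reported, neither of which passed. Taking only the gene's best covered event turned the read ratio of MBNL1 in siSNRPA1 to 0.725 and that of CELF1 in siSNRPB to 0.943; the cause was not tested. MBNL2, RBFOX2 and PTBP2 had ratios of 1.5 or more in both pools under both alternatives, in part narrowly. With the best covered event only, RBFOX2 went from 2.04 to 1.51 in siSNRPB (1.1 to 2.06), from 82 reads there and 88 in siCtrl. In siSNRPA1 it was at 1.79 (1.4 to 2.32). PTBP2 went from 2.26 to 1.64 (1.29 to 2.09) in siSNRPA1 and from 2.19 to 1.8 (1.36 to 2.38) in siSNRPB. These RBFOX2 and PTBP2 intervals all reach below 1.5. MBNL2 was at 2.23 in siSNRPA1 and 2.18 in siSNRPB. No paired analysis was possible because each group has 1 pool, and for the same reason no library could be left out.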

Other observations

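Genes known as targets of these proteins were looked at too, with every tested exon of a gene counted whether or not it is the known target exon. Over 56 such genes, 7 of 71 tested exons fell and 3 rose in siSNRPA1 against siCtrl (14.1%), and 1 of 51 fell and 6 rose in siSNRPB (13.7%), both under the share of all exons. The RBFOX target genes had 0 falls and 6 rises among 20 exons in siSNRPB against siCtrl (30%, beside 16.7% falling, 4.62% rising and 21.3% passing among all exons), with a median level difference of 0.05, against -0.01 over all exons. In siSNRPA1 they had 3 falls and 1 rise among 27 exons (14.8%, beside 17.0% passing). Directly compared, 7 of 24 of their exons passed with a lower level in siSNRPA1 than in siSNRPB and 0 passed with a higher level (29.2%, beside 14.7% passing among all exons); without regard to the test, 19 were lower and 3 higher. The same comparison gave 4 passing exons of 11 for QKI targets, all lower in siSNRPA1 (36.4%), 3 of 18 for MBNL targets, all higher in siSNRPA1 (16.7%), 1 of 4 for CELF targets and 1 of 10 for PTBP targets, both lower in siSNRPA1, and 13 of 61 over all the target genes (21.3%). Some genes stand in more than 1 list, and the lists hold few exons.

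A 273-nt exon of FN1, the fibronectin gene, had levels of 0.08 in siSNRPA1, 0.37 in siSNRPB and 0.06 in siCtrl, from 99 inclusion and 138 exclusion reads in siSNRPA1, 127 and 25 in siSNRPB, and 26 and 48 in siCtrl. It rose in siSNRPB (adjusted p 8.34e-11, Fisher's exact test) and was lower in siSNRPA1 than in siSNRPB (adjusted p 3.8e-14). The 21-nt exon of the transcription factor gene MEF2D was at 0.01 in siSNRPA1, 0.26 in siSNRPB and 0.07 in siCtrl (siSNRPA1 against siSNRPB, adjusted p 1.13e-07, Fisher's exact test). MAP3K7, a signalling kinase gene, had an 81-nt exon at 0.46 in siSNRPA1, 0.56 in siSNRPB and 0.19 in siCtrl, which rose in siSNRPB (adjusted p 0.000106, Fisher's exact test). It was higher than siCtrl in siSNRPA1 as well, from 55 inclusion and 16 exclusion reads in siSNRPA1, 36 and 12 in siSNRPB, and 21 and 45 in siCtrl. Its siSNRPA1 test is not given, as at most 3 exons per list and comparison are named. In siSNRPA1 a 127-nt exon of NUMA1 fell, with levels of 0.25 in siSNRPA1, 0.21 in siSNRPB and 0.83 in siCtrl (adjusted p 2.34e-05, Fisher's exact test), as did its 153-nt form. With 7 inclusion and 7 exclusion reads in siSNRPB, the 127-nt exon could not be tested there. Both forms had 14 exclusion reads in siSNRPA1, 7 in siSNRPB and 1 in siCtrl, and they count as 2 exons. A 130-nt exon of ITGA6, overlapped by a gene on the other strand, rose in siSNRPA1, with levels of 0.63 in siSNRPA1, 0.49 in siSNRPB and 0.36 in siCtrl (adjusted p 0.0208, Fisher's exact test). A 48-nt exon of MAP2K7 was lower in siSNRPA1 (0.30) than in siSNRPB (0.66; adjusted p 0.0336, Fisher's exact test), with 0.37 in siCtrl. For the other lists in siSNRPA1 and siSNRPB against siCtrl, MBNL targets had 6 passing exons of 22 and 1 of 14, CELF targets 0 of 4 and 0 of 2, QKI targets 0 of 13 and 2 of 10, and PTBP targets 0 of 11 and 0 of 9, beside 17.0% of all exons in siSNRPA1 and 21.3% in siSNRPB.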
